A study of Mus musculus with 39 samples.

Results

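Cytochrome P450 RNAs were followed across 2 biological replicate sucrose gradients of mouse liver. They were taken as the genes in both deposited tables whose symbol is Cyp followed by digits, an optional letter and digits, together with Por, Cyb5a, Cyb5b and Cyb5r3, which encode the redox partners of these enzymes. This gave 66 members of 13230 genes. Of these, 55 belong to families whose enzymes reside in the endoplasmic reticulum (ER), namely Cyp1 to Cyp4, Cyp7, Cyp8 and Cyp51. Cyp27a1 was the 1 member of the mitochondrial families Cyp11, Cyp24 and Cyp27, so the mitochondrial side of the comparison rests on a single gene. The other families gave 6 members, and the redox partners 4. Symbols of the required form that were in 1 of the 2 tables numbered 7 and were not used, among them Cyp1b1 and Cyp2c55.

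Cytochrome P450 enzymes are heme proteins that insert an oxygen atom into drugs, steroids, bile acids and fatty acids, and the hepatocyte is their main site of expression. ER-resident P450s are held in the membrane by a hydrophobic segment at the amino terminus, are made by ribosomes bound to the ER, and receive electrons from P450 reductase (Por) and, for some reactions, from cytochrome b5. Mitochondrial P450s carry an amino-terminal targeting sequence instead and are served by adrenodoxin and its reductase. The RNAs of the ER enzymes are therefore a class whose association with membranes is well known.

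The liver came from wild-type FVB females and was untreated. Their age is not given in the sources used here. The homogenate was made without detergent and cleared of nuclei before it was loaded. Sequencing covered fractions 4 to 19 and 21 of gradient 1 (17 libraries) and fractions 3 to 24 of gradient 2 (22 libraries), with low numbers at the light end. Values are TPM, a length-corrected share of the RNA sequenced from a fraction. A higher TPM in a fraction therefore cannot be told apart from a lower amount of all other RNA there. Between the gradients, fewer hepatocytes and less RNA per hepatocyte cannot be told apart. The fractions of a gradient come from 1 homogenate, so the ranges of marker sums below are not readouts of cell composition. Hepatocyte markers (Alb, Ttr, Apoa1, Cps1, Hnf4a) summed to between 7022 and 46148 TPM in gradient 1 and between 10951 and 29601 TPM in gradient 2. Kupffer cell markers (4 genes) reached at most 154 TPM, stellate markers (3 genes) 73.4 TPM and endothelial markers (3 genes) 59.1 TPM. The 2 cholangiocyte markers in the tables reached 5.30 TPM, with Epcam in neither table, and 1 of the 2 red cell markers was present, at up to 515 TPM.

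The hydrophobic content of the ends of a protein can be read in the coding sequence itself. Codons with T in the second position encode the hydrophobic residues Phe, Leu, Ile, Met and Val, and an ER signal or anchor is a run of them. The first 25 codons of Cyp2e1, Cyp7a1 and Cyp51, which are ER enzymes, of Cyp27a1, the mitochondrial enzyme, and of the partners Por and Cyb5r3 are shown to let the ends be compared, with T at the second position of a codon in capitals. They were read from GENCODE M21 transcripts on GRCm38.
Cyp2e1: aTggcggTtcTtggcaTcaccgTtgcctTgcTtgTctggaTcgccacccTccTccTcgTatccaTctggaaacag
Cyp7a1: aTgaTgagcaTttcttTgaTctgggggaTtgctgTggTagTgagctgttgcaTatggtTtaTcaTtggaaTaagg
Cyp51: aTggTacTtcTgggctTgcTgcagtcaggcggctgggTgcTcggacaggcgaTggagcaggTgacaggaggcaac
Cyp27a1: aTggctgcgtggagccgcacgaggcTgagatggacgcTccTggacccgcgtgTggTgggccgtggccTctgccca
Por: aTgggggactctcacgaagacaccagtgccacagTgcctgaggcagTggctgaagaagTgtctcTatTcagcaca
Cyb5r3: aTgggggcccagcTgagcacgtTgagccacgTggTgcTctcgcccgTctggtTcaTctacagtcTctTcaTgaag
Cyb5b, a b5 protein of the outer mitochondrial membrane, is anchored by its carboxyl end, so its last 25 codons are shown in the same way.
Cyb5b: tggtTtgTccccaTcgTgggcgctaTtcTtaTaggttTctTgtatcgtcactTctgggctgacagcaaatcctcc

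Second-position T made up 56% of these first codons in Cyp2e1 and in Cyp7a1, 40% in Cyp51, 48% in Cyb5r3, 28% in Cyp27a1 and 24% in Por. In Cyb5b it made up 16% of the first and 40% of the last 25 codons. Over the 54 ER-family members with a coding sequence the median was 52% (range 16 to 64%), and 50 of the 54 (92.6%) reached 40%. Among all 11849 genes with a value, 18.9% reached 40%. The secreted plasma proteins, a list of 15 RNAs also translated at the ER, had 12 members (80%) at or above 40%. By contrast, 21 of 150 nuclear-encoded mitochondrial genes (14%) and 1 of 39 proteasome genes reached it. The low end of the ER family was Cyp2u1, at 16%. A hydrophobic segment that starts past codon 25 is not counted here. A low share, as in Cyp2u1 or Por, therefore does not show that an anchor is absent. Within the ER family the share of second-position T had little relation to where an RNA sedimented. Spearman's rho with the center of the profile was 0.11 in gradient 1 and 0.26 in gradient 2 over 52 RNAs, which share libraries and, for paralogs, sequence.

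Most ER-family P450 RNAs peaked at the light end of both gradients. Of the 53 ER-family members with a mean TPM of at least 1 over the libraries of the zones defined below, 45 (84.9%) had their highest TPM in fractions 4 to 7 of gradient 1 and 42 (79.2%) in gradient 2, counted over the 17 fractions that both gradients hold. Of all 11754 genes that passed this filter, 42.5% and 40.3% peaked there. In gradient 2, 7 of the 53 (13.2%, against 8.12% of all tested genes) were instead highest in fraction 21, namely Cyp2a5, Cyp2c40, Cyp2c67, Cyp2d9, Cyp2d10, Cyp2d26 and Cyp8b1, and in gradient 1 none was. None of the 53 peaked in fractions 10 to 19 of either gradient. Fractions 3, 20 and 22 to 24 of gradient 2 are outside this count. Some RNAs counted as light there, such as Cyp1a2 and Cyp2a4, were higher still in fraction 24 (175 and 224 TPM). Relative to its own mean, the median ER-family RNA stood at 2.24 in fraction 5 of gradient 1, fell to 0.414 in fraction 18 and was at 0.447 in fraction 21. In gradient 2 it stood at 1.68 in fraction 4, fell to 0.553 in fraction 14 and came back to 1.06 in fraction 21. The return at the dense end was seen in gradient 2 and not in gradient 1.

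**Figure D1:**
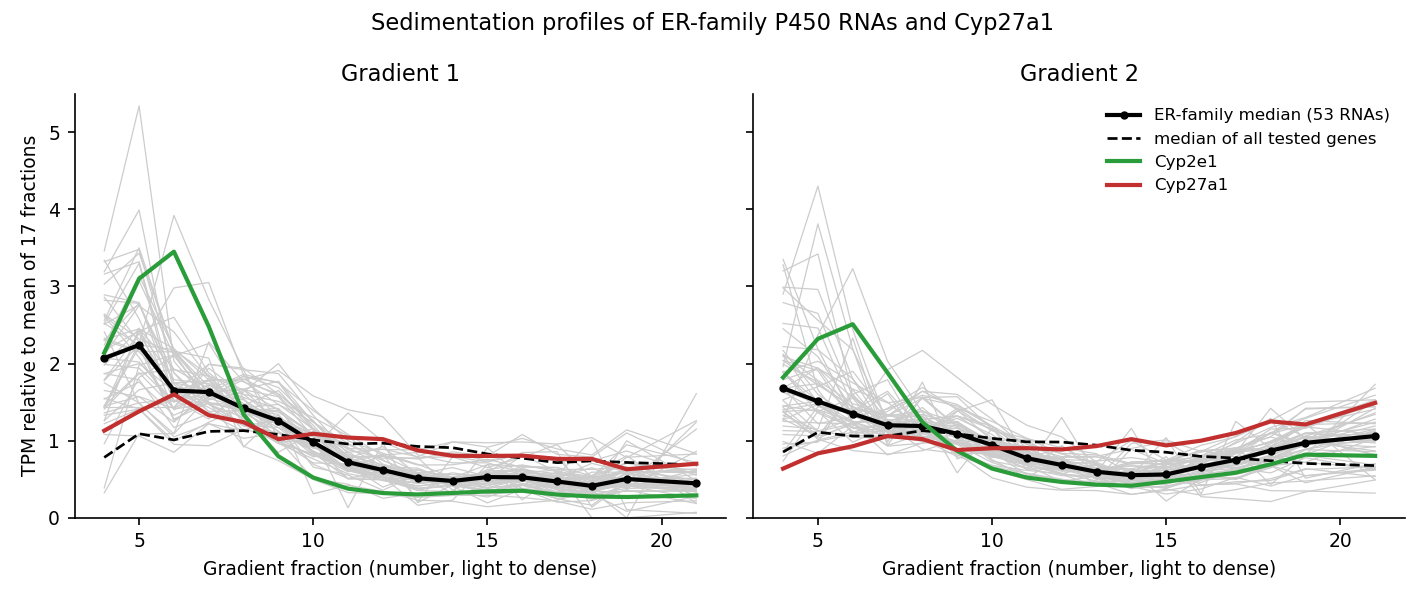
TPM of each RNA divided by its mean over the 17 fractions in both gradients, against the fraction number. Grey lines are the 53 ER-family members, the black line is their median, the dashed line is the median of all tested genes, and Cyp2e1 and Cyp27a1 are in green and red. The ER-family median is highest in fraction 5 of gradient 1 and fraction 4 of gradient 2, and Cyp27a1 is highest in fraction 6 of gradient 1 and fraction 21 of gradient 2.

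Together the ER-family RNAs took 1.08% of the TPM in fraction 5 of gradient 1, against 0.172% in fraction 18. In gradient 2 they took 1.19% in fraction 5, 0.333% in fraction 14 and 0.786% in fraction 24. Cyp2e1, which oxidizes ethanol and small solvents, was the most abundant P450 RNA. It made up 50.3% of the ER-family total in fraction 6 of gradient 1 and 48.7% in fraction 6 of gradient 2, but 18.8% in fraction 10 and 23.9% in fraction 10, respectively. Without Cyp2e1 the other ER-family RNAs still took 0.644% in fraction 5 and 0.139% in fraction 21 of gradient 1. In gradient 2 they took 0.692% in fraction 5, 0.244% in fraction 14 and 0.572% in fraction 24. The secondary increase in gradient 2 was therefore shared by Cyp2e1 and the rest.

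**Figure D2:**
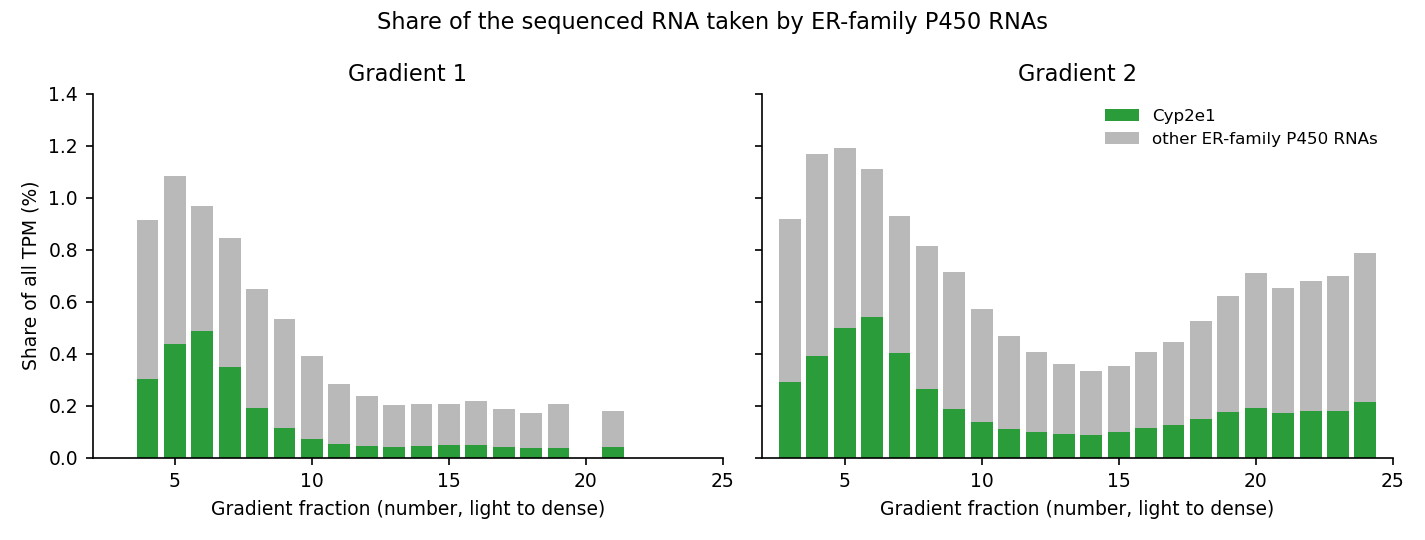
Share of all TPM (percent) taken by Cyp2e1 and by the other ER-family P450 RNAs in each fraction of each gradient, as stacked bars; fractions 3, 20 and 22 to 24 have no library in gradient 1. Both gradients are highest in fraction 5, at 1.08% and 1.19%, and gradient 2 rises again from 0.333% in fraction 14 to 0.786% in fraction 24.

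To test where along the gradient the RNAs lay, 3 zones of 4 fractions each were averaged per gradient: light (4 to 7), middle (10 to 13) and dense (16 to 19). The 6 zone means of log2(TPM + 1) were compared across all 11754 genes with limma, with Benjamini-Hochberg adjusted p-values under 0.05 called. Fold changes on this scale understate the change of low RNAs. Each comparison has 2 values a zone, and neighboring fractions are not replicates of each other. Of the 66 members 64 were tested, since Cyp2j8 and Cyp2j13 had mean TPM values under 1. The zones of a gradient come from 1 homogenate, so the fit was also made with the gradient as a block. Where a zone mean of 1 gradient is left out below, that zone rests on 1 value. The p-value then takes its spread from the other zones. It shows how a call depends on the fit and adds no evidence of a change.

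From the light to the middle zone, 21 of the 64 members were lower (32.8%, against 24.1% of all genes) and 2 were higher (3.12%, against 23.5%). With the gradient as a block, 47 were lower (73.4%, against 35.0% of all genes) and 2 higher (against 37.2%). The RNAs called higher were Cyb5a and Cyb5r3 in both fits. Among the RNAs called without the block, the 3 largest falls were those of Cyp2e1 (-2.47, adjusted p = 0.0209), Cyp2d40 (-2.23, adjusted p = 0.00269) and Cyp51 (-1.97, adjusted p = 0.0153). Cyp7a1 changed by -2.51 (adjusted p = 0.0521, with the block 0.000337). The ER-family median changed by -1.17, at -1.34 in gradient 1 and -0.90 in gradient 2, while the median over all genes was 0.05. All 53 ER-family members were below 0 in gradient 2 and 52 in gradient 1, against 5749 and 5630 of all 11754 genes. The exception in gradient 1 was Cyp2g1, an olfactory-type P450, whose highest TPM was in fraction 9.

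From the light to the dense zone, 27 members were lower (42.2%), which is near the 39.6% of all genes called lower, and 2 were higher (3.12%, against 22.3%). The count of falls alone therefore does not set the members apart. With the gradient as a block, 55 members were lower (85.9%, against 50.0% of all genes) and 2 higher (against 30.5%). The ER-family median changed by -1.21, at -1.84 in gradient 1 and -0.79 in gradient 2, against -0.43 over all genes. Quantile normalization moved the median of all genes to -0.05 and the share of calls that were higher from 36.0% to 50.6%, and left the ER-family median at -1.23. In both gradients 52 of the 53 ER-family members were below 0, against 6626 of all 11754 genes. Cyp2c40 was the exception, at -0.12 in gradient 1 and 0.22 in gradient 2. The fit without the block carried the difference in level between the gradients as error, and for Cyp2a5 its standard error was 1.43.

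From the middle to the dense zone, 2 members were lower (3.12%, against 22.5% of all genes) and 0 higher (against 4.79%). With the block 6 were lower (9.38%, against 39.3%) and 2 higher (3.12%, against 14.1%). The ER-family median was -0.20, from -0.49 in gradient 1 and 0.11 in gradient 2. The signs of the gradients thus differed. Over all genes quantile normalization moved the median in this comparison from -0.28 to 0.03 and the share of calls that were higher from 17.5% to 43.0%.

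**Figure D3:**
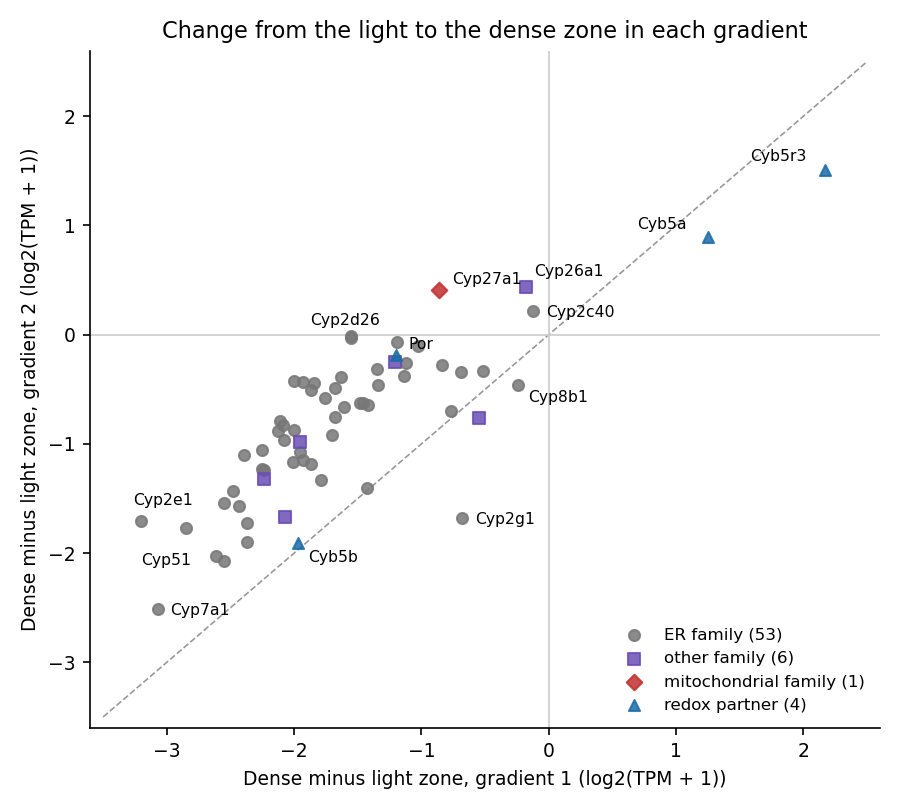
Dense minus light zone mean of log2(TPM + 1) in gradient 1 (x axis) and gradient 2 (y axis) for the 64 tested members, with the line of equal change dashed. ER-family members lie mostly at lower left and above the line, Cyp27a1 is at -0.86 and 0.41, and Cyb5a and Cyb5r3 are the members above 0 in both gradients.

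The P450 that dominates the class was also among those that changed most. Cyp2e1 (chr7:140763739-140774987, plus strand, GRCm38) ran from 381 TPM (median 494, highest 4867) over the 17 fractions of gradient 1 and from 894 TPM (median 1491, highest 5394) in gradient 2. The highest value was in fraction 6 of both gradients, and the 2 profiles correlated with R = 0.98 across these fractions. Its light zone means were 3941 and 4575 TPM in gradients 1 and 2, its middle zone means 537 and 1103 TPM, and its dense zone means 423 and 1409 TPM. Both light zone means lay above the other 4. The change from light to dense was -2.45 ± 0.62 (SE, n = 2 gradients; limma adjusted p = 0.0159, with the block 0.00172). Without the light zone mean of gradient 1 or of gradient 2 the adjusted p was 0.0791 or 0.0955.

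Among the sterol and bile acid enzymes, Cyp7a1 and Cyp51 had some of the lightest profiles and Cyp8b1 one of the most even. Cyp7a1, the rate-limiting enzyme of the classical bile acid pathway, had zone means of 20.0, 2.27 and 1.27 TPM (light, middle, dense) in gradient 1 and 52.8, 7.92 and 7.73 TPM in gradient 2. The light means of both gradients exceeded all 4 of the others, although the gradients differed in level. The change from light to dense was -2.79 ± 0.84 (adjusted p = 0.0296, with the block 0.000116), the largest fall of any member in this comparison. It was not called without the light zone of gradient 1 (adjusted p = 0.0609) or of gradient 2 (0.173), without the dense zone of gradient 1 (0.108) or after quantile normalization (0.0596).

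Cyp51, lanosterol demethylase of cholesterol synthesis, had zone means of 37.0, 7.96 and 4.85 TPM in gradient 1 and 55.8, 13.0 and 11.8 TPM in gradient 2. It was lower in the dense zone by -2.32 ± 0.45 (adjusted p = 0.00605) and peaked in fraction 5 of both gradients. Without the light zone of gradient 2 the adjusted p was 0.0555. Cyp39a1, an oxysterol hydroxylase outside the listed ER families, fell by 1.78 (adjusted p = 0.00361), and Cyp7b1, the other oxysterol hydroxylase, changed by -1.51 ± 0.91 (adjusted p = 0.193, with the block 0.00214, and 0.0408 without the dense zone of gradient 2).

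Cyp8b1, the sterol hydroxylase needed for cholic acid synthesis, had a flatter profile. Its zone means were 23.9, 17.5 and 19.9 TPM in gradient 1 and 16.9, 10.7 and 11.9 TPM in gradient 2. The light zone was the highest in each gradient by a small margin, and the dense zone mean of gradient 1 exceeded the light zone mean of gradient 2. Its change from light to dense was -0.35 ± 0.35 (adjusted p = 0.417, with the block 0.0317). Cyp8b1 (chr9:121914356-121916305, minus strand) is the 1 ER-family member whose transcript has a single exon, and its profile center was 11.8 in gradient 1 and 11.7 in gradient 2, against medians of 9.22 and 10.9 for the family.

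The center is the TPM-weighted mean fraction number over the 17 shared fractions. In gradient 1, 51 of the 53 ER-family RNAs had a center below the median of all tested genes, which was 11.3. In gradient 2, where that median was also 11.3, 34 did. Averaged over the gradients, the lightest ER-family members with a mean TPM of at least 1 were Cyp7a1 (7.60 ± 0.781, SD, n = 2) and Cyp3a13 (8.35 ± 0.826), and the densest were Cyp2c40 (12.1 ± 0.53) and Cyp8b1 (11.7 ± 0.129). Neighbors in this order often differed by less than the spread between the gradients. Across the 60 tested P450 members, the centers of the 2 gradients had a Spearman's rho of 0.75, against 0.93 across all 11747 tested genes with a center in both.

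In the drug-metabolizing families the balance of light and dense fractions varied from RNA to RNA. Cyp3a11, a main steroid and drug hydroxylase, had zone means of 442, 186 and 102 TPM in gradient 1 and 937, 593 and 512 TPM in gradient 2. Within each gradient the light zone was highest, yet all 3 means of gradient 2 exceeded those of gradient 1. Its change of -1.46 ± 0.92 was not called without the block (adjusted p = 0.21) and was with it (0.00644). Cyp3a25 had a change of -1.51 ± 0.79 (adjusted p = 0.143, with the block 0.00555). All 6 Cyp3a RNAs were below 0 in both gradients, as were 6626 of all 11754 genes. Of the 6, 1 was called without the block (16.7%, against 39.6% of all genes) and 6 with it (against 50.0%). Without the dense zone of gradient 2 the adjusted p was 0.0351 for Cyp3a11 and 0.0213 for Cyp3a25. The called one was Cyp3a13, at -2.13 (adjusted p = 0.00326), which shares under 1% of its 31-base words with other genes.

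The Cyp2c RNAs, which encode arachidonic acid and drug oxidases, ranged widely, with centers from 8.45 to 11.8 in gradient 1. Apart from Cyp2c44 (chr19:44005022-44029208) they are encoded in 1 cluster at chr19:39269405-40187333, and 12 members were tested. Cyp2c38 had zone means of 247, 67.6 and 39.6 TPM in gradient 1 and 199, 52.2 and 44.6 TPM in gradient 2. It fell by 2.31 from light to dense (adjusted p = 0.000491) and by 1.87 from light to middle (adjusted p = 0.00181), with little difference between the gradients. Cyp2c39 fell by 1.96 (adjusted p = 0.00292), with light zone means of 549 and 503 TPM and dense zone means of 98.1 and 188 TPM. Cyp2c29, Cyp2c37 and Cyp2c70 changed by between -1.45 and -1.01, which was called with the block (adjusted p = 0.00774, 0.0243 and 0.0116) and not without it (0.127, 0.0575 and 0.0914). Without the dense zone of gradient 2 these adjusted p-values were 0.0143, 0.00322 and 0.00991. Cyp2c37 was also called after quantile normalization (adjusted p = 0.048) and with wider zones of fractions 4 to 8, 9 to 14 and 15 to 19 (0.0311).

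Cyp2c40 (chr19:39767071-39812814, minus strand), in contrast, had no light peak that both gradients shared. Over the shared fractions it ran from 88.7 to 141 TPM in gradient 1, highest in fraction 9, and from 82.5 TPM in fraction 14 to 181 TPM in fraction 21 of gradient 2. Its zone means were 114, 102 and 106 TPM in gradient 1 and 121, 97.8 and 140 TPM in gradient 2. The zones overlapped, and the change of 0.05 ± 0.18 was not called in any alternative run. Cyp2c40, Cyp2c67, Cyp2c68 and Cyp2c69, which share between 62.0% and 84.5% of their 31-base words with transcripts of other genes, had the densest centers of the subfamily, from 11.1 to 12.1 as means over the gradients. Reads of these paralogs may have been divided among them, so single values of the group are uncertain. Across 52 ER-family RNAs the share of words in common with other genes had a Spearman's rho with the center of 0.33 in gradient 1 and 0.46 in gradient 2. Its part in the centers was not tested.

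The Cyp2d RNAs also differed from one another in how far they fell toward the dense zone. Cyp2d40 had zone means of 32.4, 4.69 and 3.76 TPM in gradient 1 and 21.2, 4.52 and 5.25 TPM in gradient 2, and fell by 2.31 to the dense zone (adjusted p = 0.0013). Cyp2d26 had zone means of 234, 118 and 78.6 TPM in gradient 1, but 172, 131 and 168 TPM in gradient 2. Its light and dense zones thus differed in gradient 1 (by -1.55) and hardly in gradient 2 (by -0.03), and the change of -0.79 ± 0.37 was not called (adjusted p = 0.11, with the block 0.086). Cyp2d10 was close to it, at -1.55 and -0.01, and shares 50.6% of its words with other genes. Without the dense zone of gradient 2 the change was -1.33 for Cyp2d26 and -1.29 for Cyp2d10, which rests on the dense zone of gradient 1 alone. Quantile normalization gave Cyp2d26 an adjusted p of 0.0496. Cyp2d13, which RefSeq annotates as a transcribed pseudogene, was nevertheless present at means of 63.0 and 68.5 TPM.

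Cyp2b9, a female-predominant drug oxidase, fell by 1.74 to the dense zone (adjusted p = 0.00816), with light zone means of 353 and 374 TPM and dense zone means of 72.9 and 159 TPM. Cyp2a12, a steroid hydroxylase, fell by 1.03 (adjusted p = 0.0454) and Cyp2a4 by 1.19 (adjusted p = 0.0498). Cyp2f2, which activates naphthalene, had its highest TPM in fraction 8 of both gradients, further in than most, and changed by -1.21 ± 0.44 (adjusted p = 0.0557, with the block 0.00575, after quantile normalization 0.0293, with wider zones 0.0391, and 0.00523 without the dense zone of gradient 2). The calls of Cyp2a12 and Cyp2a4 were lost without the light zone of either gradient or the dense zone of gradient 1 (adjusted p from 0.137 to 0.196), and that of Cyp2b9 without either light zone (0.0541 and 0.058). Cyp2a4 was also just over the threshold with a pseudocount of 0.1, with either other filter and after rescaling without the 50 most abundant genes (adjusted p from 0.0504 to 0.0634), and Cyp2a12 after that rescaling (0.0586). The 3 Cyp4a RNAs, fatty acid omega-hydroxylases, were all called lower, as were the 3 tested Cyp2j RNAs, which encode epoxygenases. Of the 4 Cyp4f RNAs 2 were called lower without the block and 4 with it. Over all genes 39.6% were called lower without the block and 50.0% with it. Cyp2r1, the vitamin D 25-hydroxylase of the ER, fell by 1.53 (adjusted p = 0.00841, and 0.0567 or 0.0622 without the light zone of gradient 1 or 2).

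Members of the other families were scarce. Cyp20a1 and Cyp26b1, a retinoic acid hydroxylase, fell by 1.47 (adjusted p = 0.0134) and 1.87 (adjusted p = 0.00107), from light zone means of 7.75 and 7.86 TPM and of 7.58 and 7.73 TPM. Without the light zone of gradient 1 or 2 the adjusted p of Cyp20a1 was 0.0749 or 0.0702, and it was 0.0714 after quantile normalization. Cyp26a1, the other retinoic acid hydroxylase, had means of 1.53 TPM in gradient 1 and 8.28 TPM in gradient 2. Its change was 0.13 ± 1.07 (adjusted p = 0.926), and its profiles in the gradients correlated with R = -0.19. Cyp46a1, a cholesterol 24-hydroxylase of brain, was at most 2.64 TPM over the shared fractions and changed by -0.73 ± 0.30 (adjusted p = 0.0737, with the block 0.0436, and 0.0145 without the dense zone of gradient 2).

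Cyp27a1, the mitochondrial sterol 27-hydroxylase of the alternative bile acid pathway, did not share the steep light peak. Its TPM (chr1:74713574-74737892, plus strand) ran from 79.7 to 203 (median 129) in gradient 1 and from 116 to 270 (median 171) over the same fractions of gradient 2. The zone means were 172, 128 and 93.8 TPM in gradient 1, falling from light to dense, and 157, 165 and 208 TPM in gradient 2, rising. The gradients thus went opposite ways, with a correlation of R = -0.53 between their profiles over 17 fractions. The change from light to dense was -0.22 ± 0.38 (adjusted p = 0.629, with the block 0.516). Without the dense zone of gradient 2 it was -0.79, which rests on the dense zone of gradient 1 alone. In the fractions past 21 of gradient 2 the RNA went on to 297 TPM in fraction 24.

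Set beside the ER family, Cyp27a1 had a denser center than 50 of the 53 RNAs in gradient 1 (10.9) and than all 53 in gradient 2 (12.8). No test of family against family was made, since 1 gene stands for the mitochondrial side. Its profile nonetheless correlated with those of the ER-family RNAs in gradient 1 (median R = 0.79, positive for all 53), while in gradient 2 the median R was -0.28, with 16 of 53 positive. Pairs of ER-family RNAs had a median R of 0.84 in gradient 1 and 0.68 in gradient 2, over 1378 pairs that share the same fractions.

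The RNAs of other nuclear-encoded mitochondrial proteins are set beside Cyp27a1 with no test of the difference. Of 148 such RNAs tested (subunits of the respiratory chain and of the mitochondrial ribosome), 134 were higher in the middle than in the light zone (90.5%, against 23.5% of all genes), with a median of 1.80. Cyp27a1 was at -0.42 in gradient 1 and 0.09 in gradient 2. From light to dense the list had medians of 1.07 and 0.87 and Cyp27a1 was at -0.86 and 0.41. In gradient 1 the center of Cyp27a1 (10.9) was below the quartiles of the list (11.4 to 13.4), and in gradient 2 (12.8) it was within them (11.4 to 13.2). The electron carriers of the mitochondrial P450 system were both called higher in the dense zone. Fdx1 (adrenodoxin) rose by 2.35 from light to dense (adjusted p = 0.000882) and Fdxr (its reductase) by 2.92 (adjusted p = 0.000417). Fdx1l, the ferredoxin of iron-sulfur cluster assembly, fell by 3.91 (adjusted p = 0.000353).

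The redox partner RNAs sedimented in different ways, Por and Cyb5b with profiles that correlated positively with most P450 RNAs and Cyb5a and Cyb5r3 with profiles that correlated negatively with most. Por, the flavoprotein that passes electrons to every ER P450, had zone means of 55.9, 30.6 and 23.7 TPM in gradient 1 and 103, 71.9 and 89.6 TPM in gradient 2. The light zone was highest within each gradient. The change from light to dense was -0.69 ± 0.72 (adjusted p = 0.43, with the block 0.0451). Its profile correlated positively with all 53 ER-family RNAs in both gradients (median R 0.85 and 0.50). In gradient 2, however, its center (12.0) was above the upper quartile of the family (11.6). Por reached its overall highest value, 171 TPM, in fraction 24 of gradient 2.

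Cyb5a, the ER form of cytochrome b5, had a higher mean TPM than any P450 RNA (2972 and 3610, against 1410 and 2147 for Cyp2e1). Its zone means were 1172, 4963 and 2649 TPM in gradient 1 and 1608, 6090 and 2893 TPM in gradient 2. The middle zone was highest in both, with the single highest value in fraction 12 of each gradient, 5874 and 6819 TPM. It rose by 2.06 ± 0.24 from light to middle (adjusted p = 0.00214), fell by 0.99 from middle to dense (adjusted p = 0.0323), and R against the ER-family RNAs had medians of -0.61 and -0.63. From light to dense it rose by 1.07 ± 0.24 (adjusted p = 0.011). Without the light zone of gradient 1 that adjusted p was 0.0769. The call from middle to dense was lost with wider zones (adjusted p = 0.0591) and without any 1 zone mean of 1 gradient (from 0.0569 to 0.163). Without either middle zone no gene of the 11754 tested was called in that comparison.

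Cyb5b, the mitochondrial outer membrane form, had a peak in fraction 5 (682 TPM in gradient 1, 766 TPM in gradient 2) and a second one near fraction 10 (469 and 557 TPM), with lower values between them in both gradients. Its zone means were 470, 351 and 115 TPM in gradient 1 and 540, 453 and 138 TPM in gradient 2. It fell by 1.94 from light to dense (adjusted p = 0.000751) and by 1.61 from middle to dense (adjusted p = 0.00714, and 0.0573 or 0.0606 without the middle zone of gradient 1 or 2, where no gene was called), and from light to middle it changed by -0.34 ± 0.20 (adjusted p = 0.215, with the block 0.0299). R against the ER-family RNAs had a median of 0.74 in gradient 1, positive for all 53, and 0.50 in gradient 2, positive for 51. Both b5 proteins are anchored by the carboxyl end, yet their RNAs had centers of 12.6 ± 0.127 for Cyb5a and 9.65 ± 0.0873 for Cyb5b (SD, n = 2 gradients).

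Cyb5r3, the reductase of cytochrome b5, was the densest member. Its zone means rose through 214, 591 and 910 TPM in gradient 1 and 235, 472 and 673 TPM in gradient 2, without overlap between the light zone and the others. The rise from light to dense was 1.84 ± 0.23 (adjusted p = 0.00122). Its profile ran opposite to those of the ER-family RNAs, with R negative for all 53 in both gradients (medians -0.86 and -0.73).

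**Figure D4:**
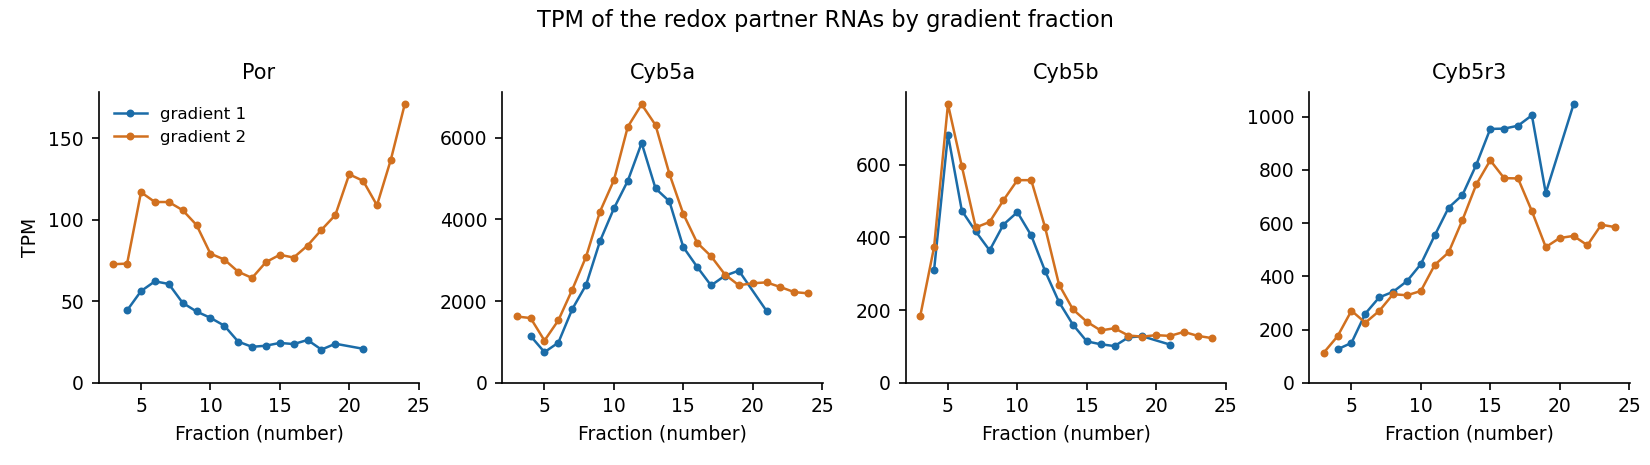
TPM of Por, Cyb5a, Cyb5b and Cyb5r3 in every library, by fraction number and gradient. Cyb5a is highest in fraction 12 of both gradients, Cyb5b in fraction 5, and Cyb5r3 is dense in both. Por rises toward fraction 24 in gradient 2 and does not rise up to fraction 21 of gradient 1, which has no later library.

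The other genes of the pathway, a list of 17 that were in both tables, were called in both directions. From light to dense 5 were higher (29.4%, against 22.3% of all genes) and 6 lower (35.3%, against 39.6%) without the block, and 7 and 7 with it (41.2% each, against 30.5% and 50.0%). Among heme and P450 binding genes, Pgrmc2 fell by 1.46 (adjusted p = 0.00456) and Pgrmc1 changed by -1.25 ± 0.52 (adjusted p = 0.0818, with the block 0.00857). Alas1, the first enzyme of heme synthesis, had centers of 15.0 and 15.1 and changed by 2.32 ± 1.36 (adjusted p = 0.183, with the block 0.00013). The P450 regulators were split: Nr1i3 (CAR) rose by 1.75 (adjusted p = 0.00059), as did Nr1h4 (FXR) by 1.28 and Nr0b2 (SHP) by 1.29 (adjusted p = 0.0142 and 0.00418), while Rxra fell by 1.57 (adjusted p = 0.00144), Hnf4a by 1.08 and Ppara by 0.76 (adjusted p = 0.00648 and 0.0126). Nr1i2 (PXR) and Ahr changed by 0.33 and -0.13 and were not called in either fit. Arnt changed by 0.44 (adjusted p = 0.0522, with the block 0.00853). Of the other b5 reductases Cyb5r4 fell by 3.30 (adjusted p = 0.000301) and Cyb5r1 changed by -0.47 (adjusted p = 0.139).

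The ER-family RNAs had a denser median center in gradient 2 than in gradient 1, and so did another list translated at the ER. The median center of the ER-family RNAs was 9.22 in gradient 1 and 10.9 in gradient 2, and that of the 15 secreted plasma protein RNAs was 8.47 and 10.9. Nuclear-encoded mitochondrial RNAs were at 12.5 and 12.4, and proteasome RNAs at 14.6 and 14.1. From light to dense the secreted RNAs changed by a median of -1.78, with 12 of 15 lower (80%, against 39.6% of all genes). The mitochondrial RNAs changed by a median of 0.97, with 93 of 148 higher (62.8%, against 22.3% of all genes), and the proteasome RNAs by 2.34, with 36 of 37 higher (97.3%). The median over all genes was -0.43. What differed between the gradients at the dense end was not tested.

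The mean TPM of P450 RNAs also differed between the gradients. It is an unweighted mean over fractions, so it depends on where an RNA sedimented as well as on its amount. For Cyp2e1 (ratio 1.52) the light zone means were 3941 and 4575 TPM and the dense zone means 423 and 1409 TPM. The mean TPM over the shared fractions was higher in gradient 2 for 49 of the 60 tested P450 members (median ratio 1.39), and 17 were over 2-fold higher there and 2 over 2-fold higher in gradient 1. Such differences made up 31.7% of the P450 members and 6.5% of all tested genes, whose median ratio was 0.88. Cyp2a5, a coumarin hydroxylase, was at 26.5 and 168 TPM (6.33-fold), with a light-to-dense change of -1.14 ± 1.43 (adjusted p = 0.514, with the block 0.0225), and Alas1 at 115 and 719 TPM. Cyp3a16 went the other way, at 38.8 and 6.84 TPM, and Cyp4a14, a target of PPAR alpha, at 101 and 48.7 TPM. With 1 homogenate a gradient, these means have no replicate, and level and sedimentation were not separated.

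Longer P450 transcripts had lighter centers by rank. Spearman's rho between transcript length and center was -0.49 in gradient 1 and -0.42 in gradient 2 over 52 ER-family RNAs, given as a description of RNAs that share libraries and ancestry. Cyp7a1 (4172 bases) and Cyp51 (3931 bases) were long and light, but the longest tested transcript, that of Cyp2u1 (4378 bases), had a mean center of 11.0, and Cyp2c40 (1803 bases, center 12.1) was near the family's median length of 1884 bases. The mean TPM of an RNA had no such relation to its center (rho 0.07 and 0.14).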

How the data were processed

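RNA of 39 liver gradient fractions had been sequenced by the authors from stranded libraries depleted of ribosomal RNA, pseudo-aligned with Kallisto to RefSeq transcripts of mm10, and deposited as TPM per gene symbol, one table a gradient. The submitters' processing notes name bcl2fastq 2.16.0.10, and the version of Kallisto is not given in the sources used here. The way transcripts were summed to genes is likewise not given. Every value column was matched to a sample (0 left over). TPM holds no read counts, so depth is unknown, no count model was used, and the 2 gradients alone show how far values vary. Kallisto divides reads that fit several transcripts, so paralogs of a P450 subfamily may share reads. For each member the 31-base words of its GENCODE M21 transcripts with a RefSeq match were looked up in those of all other genes. Of the 66 members 65 were found there, Cyp2c44 through its RefSeq synonym (GRCm38.p6), and Cyp2d13 was not; 7 shared over 50% of their words, and 17 shared none.

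Zone means of log2(TPM + 1) (pseudocount 1), for genes in both tables with a mean TPM of at least 1 over 24 libraries, were fitted with limma 3.58.1 (R 4.3.3), with a trend in eBayes and Benjamini-Hochberg adjustment over 11754 genes at 0.05. The zones of a gradient come from 1 homogenate. The differences between the gradients correlated across genes between light and middle (r = 0.665), light and dense (0.540) and middle and dense zones (0.798). The gradient was therefore also fitted as a block. The fit was tested on simulated data. R is Pearson's R across fractions. Members, families and gene lists were chosen with earlier results of these data known. Named are the 20 members with the highest mean TPM, the mitochondrial and sterol P450s, Cyp2r1, Cyp20a1, Cyp39a1, Cyp46a1, Cyp26 members, the partners, and the 3 largest called rises and falls of each contrast; other names are examples chosen after their values were seen. Alternatives were the pseudocount (0.1), filters (none, 10), quantile normalization, TPM rescaled without the 50 most abundant genes (1 of them a member), other zone borders, each zone mean left out, and paralogs left out. Figures were drawn with Matplotlib 3.10.9 and ranks computed with SciPy 1.17.1. Proteins were not analysed here.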

Additional observations from a re-analysis of the deposited data

How the results depend on the processing

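With the gradient as a replicate block more members were called. The number of members that differed went from 23 to 49 between the middle and light zones, from 29 to 57 between the dense and light zones and from 2 to 8 between the dense and middle zones, where 2 were then higher in place of 0. With wider zones (fractions 4 to 8, 9 to 14 and 15 to 19) 1 member differed between the dense and middle zones. Leaving out 1 zone mean of 1 gradient at a time gave between 5 and 34 members that differed from light to middle, between 12 and 44 from light to dense and between 0 and 3 from middle to dense; the members that were higher numbered between 1 and 2, between 1 and 2, and 0. The lowest count from light to middle (5) and from light to dense (12) came without the light zone of gradient 1, and the highest from light to dense (44) without the dense zone of gradient 2. Over all 11754 genes, without the light zone of gradient 1 the calls also fell, from 5589 to 2913 from light to middle and from 7274 to 5098 from light to dense, while without the dense zone of gradient 2 those from light to dense were 7156. Without either middle zone no gene was called from middle to dense, so the 0 members there say nothing about the members. The ER-family median then ran from -1.54 to -0.82, from -1.93 to -0.66 and from -0.78 to 0.39, the last changing sign without the dense zone of gradient 1 or the middle zone of gradient 2. It was 0.08 from middle to dense after quantile normalization. Over gradient 1 or 2 alone, the median center was 9.22 or 10.9 for the ER family and 10.9 or 12.8 for Cyp27a1; over all 22 fractions of gradient 2 it was 12.7 and 14.9. The cause of these differences was not tested. For the 32 genes named by rule, the light-to-dense change kept its direction and its side of the threshold in 348 refits, lost its call in 26, gained one in 27 and changed sign in 8, none of which was called in either fit. Leaving out 1 zone mean gave these changes of sign: Cyp27a1 ran from -0.79 to 0.34, Cyp2a5 from -2.85 to 0.57 and Por from -1.63 to 0.24, each positive without the dense zone of gradient 1. Cyp26a1 ran from -1.20 to 1.46, negative without the light zone of gradient 1 (-0.90) or the dense zone of gradient 2, and Cyp2c40 from -0.15 to 0.25, negative without the dense zone of gradient 2, after quantile normalization (-0.08) and with wider zones (-0.01). With 2 gradients and unknown depth, low members such as Cyp46a1 are limited by counting error that cannot be given.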
